A study of Mus musculus with 2 samples.

Results

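The tumour necrosis factor (TNF) superfamily genes measured here are 25 of the 22216 rows of a gene table from mouse spleen, 12 of them ligand genes and 13 receptor genes. They were chosen by symbol. Of 35 rows named Tnf, Lta, Ltb, Ltbr or with a numbered Tnfsf or Tnfrsf symbol, 10 were set aside, namely the decoy receptor genes Tnfrsf22, Tnfrsf23 and Tnfrsf26, the genes of the BAFF and APRIL system (Tnfrsf13b, Tnfrsf13c, Tnfrsf17, Tnfsf13 and Tnfsf13b), and Tnfrsf18 and Tnfrsf4. The RNA came from whole spleen of mice with the genotypes NOD.g7 and NOD.L7, and each genotype is 1 library made from the pooled spleens of 3 mice. NOD, for non-obese diabetic, is a mouse strain in which autoimmune destruction of insulin-producing cells arises spontaneously. The labels give no treatment, age or sex, and do not say what g7 and L7 stand for.

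Ligands of this superfamily are mostly trimeric membrane proteins, some of which are cut from the cell surface, and they cluster their receptors by binding them as trimers. The receptors divide into those with an intracellular death domain, which recruit adaptors such as TRADD and FADD, those that bind TNF receptor associated factors (TRAFs) directly, and decoys that do not signal. Most of them activate the transcription factor NF-kappaB, and in the spleen lymphotoxin and TNF signals to stromal cells are known for building and keeping the B and T cell zones. Other members act between antigen-presenting cells and T cells as costimulatory signals.

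Values are RPKM, a read density corrected for gene length and library depth. Levels of different genes compare only roughly, since how genes were modelled and how multiply mapped reads were counted is not given. Wherever a pair of values is given, that of NOD.g7 comes before that of NOD.L7, and folds are NOD.L7 over NOD.g7. The log2 ratio is that of RPKM + 1 in NOD.L7 over RPKM + 1 in NOD.g7, a scale on which differences of genes at low levels are understated. A gene was set against the size rules if its RPKM was 1 or more in at least 1 library. The size rule was an absolute log2 ratio of at least 1, and the lower size rule was 0.5, or 1.41-fold in RPKM + 1. The values rest on 9.13 Gb of mapped sequence in NOD.g7 and 12.1 Gb in NOD.L7. With 1 library per genotype there are no replicates, no p-value can be had, and each difference is a difference between these 2 libraries. The ranges in brackets after folds are 95% counting intervals, which do not include variation between mice.

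None of the 25 genes passed the size rule, against 0.709% of the 11141 genes at an RPKM of at least 1. Of the members 18 were above that level, in both libraries in each case, and 7 were under it in both. At the lower size rule 5 members were higher in NOD.L7 and 0 were lower, where 2.52% of all genes tested were called higher and 1.58% lower. The 5 were the ligand genes Tnfsf9, Tnfsf11 and Tnfsf14 and the receptor genes Ltbr and Tnfrsf1a. The median log2 ratio of the 18 members was 0.14 and their range was -0.23 to 0.64, and the median of all 11141 genes was 0.02. In whole spleen, more cells of a type and more RNA per cell cannot be told apart.

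**Figure D1:**
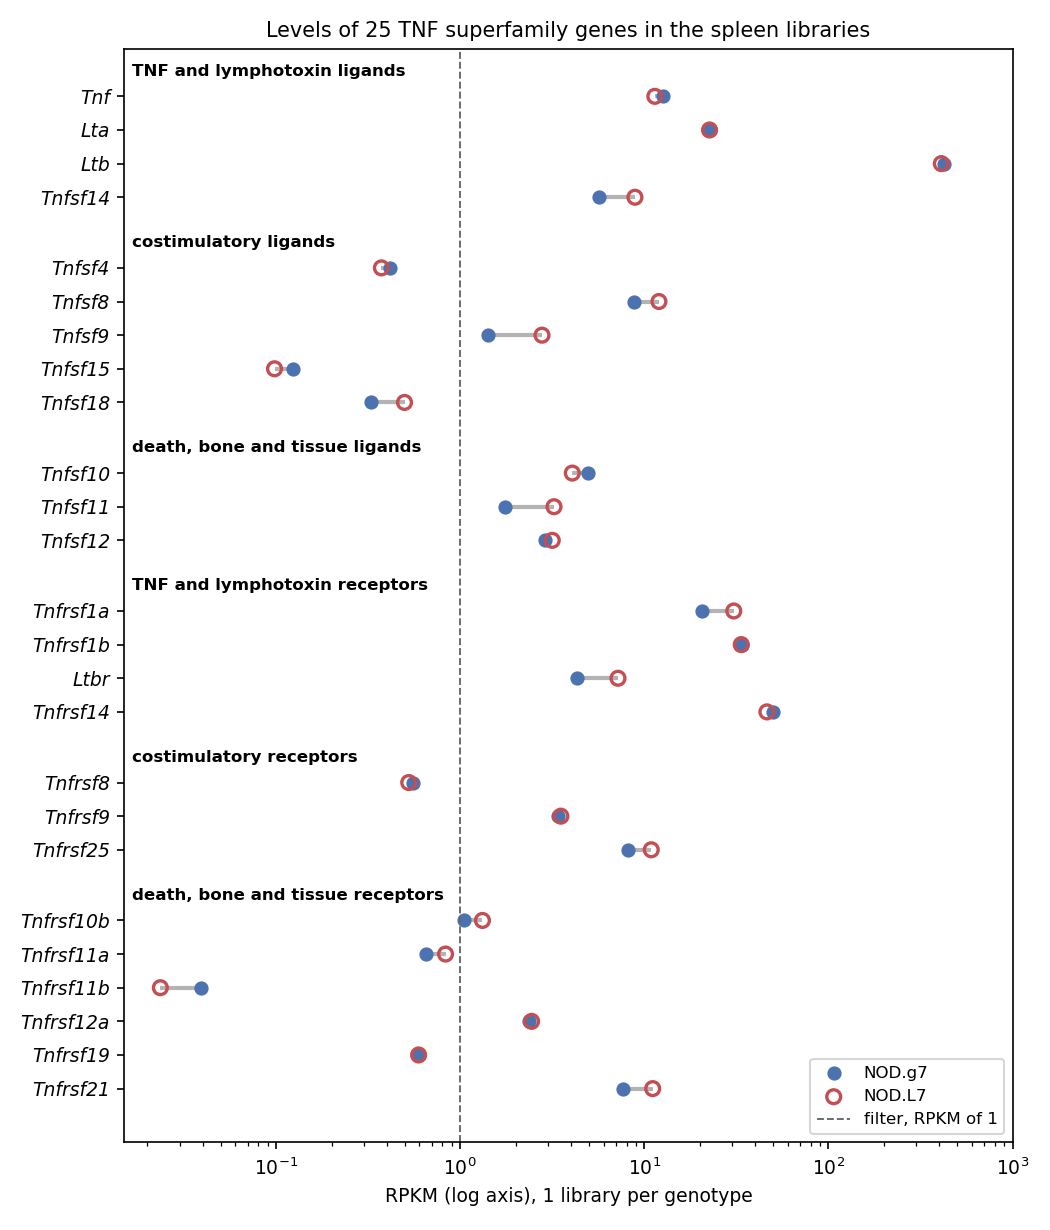
RPKM of each of the 25 genes in NOD.g7 (filled blue) and NOD.L7 (open red), 1 library per genotype, on a log axis, grouped by role, with a dashed line at an RPKM of 1. Ltb stands above all other members at 425 and 410.3, and the widest gaps above the dashed line are those of Tnfsf9, Tnfsf11, Ltbr and Tnfsf14.

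The core TNF and lymphotoxin ligands were at near-equal levels in both libraries. Ltb encodes lymphotoxin beta, which anchors lymphotoxin alpha in the membrane as a heterotrimer. It was by far the most abundant member, with RPKM values of 425 and 410.3, and ranked 49 of all 22216 rows in each. It made up most of the summed ligand RPKM of 487 and 479. Lta, the gene of lymphotoxin alpha, was at 22.6 in both (fold 0.998, 0.931 to 1.07). Tnf itself was at 12.6 and 11.4 (fold 0.902, 0.827 to 0.985). These genes are neighbours on chromosome 17, with Ltb at 35331452 to 35333250, Tnf at 35336336 to 35338941 and Lta at 35340110 to 35342296 in mm9. Between start coordinates, Ltb lies 4.88 kb to the left of Tnf and Lta 3.77 kb to its right. The level of Ltb was 33.7 times that of Tnf in NOD.g7 and 36 times in NOD.L7.

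Tnfsf14 differed from these. It encodes LIGHT, a ligand of both the lymphotoxin beta receptor and HVEM, and was at 5.67 and 8.89. It was thus 1.57-fold higher in NOD.L7 (1.40 to 1.75), with a log2 ratio of 0.57 against -0.14 for Tnf, -0.05 for Ltb and -0.00 for Lta. Within this group of 4 ligands, Tnfsf14 was the least abundant in both libraries.

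Among the receptors of these ligands, Ltbr and Tnfrsf1a were higher in NOD.L7 while Tnfrsf1b and Tnfrsf14 were close to equal. Ltbr, the lymphotoxin beta receptor found on stromal and myeloid cells, was at 4.33 and 7.19 (fold 1.66, 1.48 to 1.87). Tnfrsf1a encodes TNF receptor 1, the broadly expressed receptor with a death domain, and was at 20.6 and 30.6 (fold 1.49, 1.41 to 1.57). Tnfrsf1b encodes TNF receptor 2, which lacks a death domain and is found mainly on leukocytes. It was at 33.9 and 33.6 (fold 0.99, 0.957 to 1.02). Tnfrsf14, the gene of the lymphocyte receptor HVEM, was at 50.0 and 46.3 (fold 0.925, 0.879 to 0.974). The level of Tnfrsf1a was thus 0.606 times that of Tnfrsf1b in NOD.g7 and 0.912 times in NOD.L7.

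**Figure D2:**
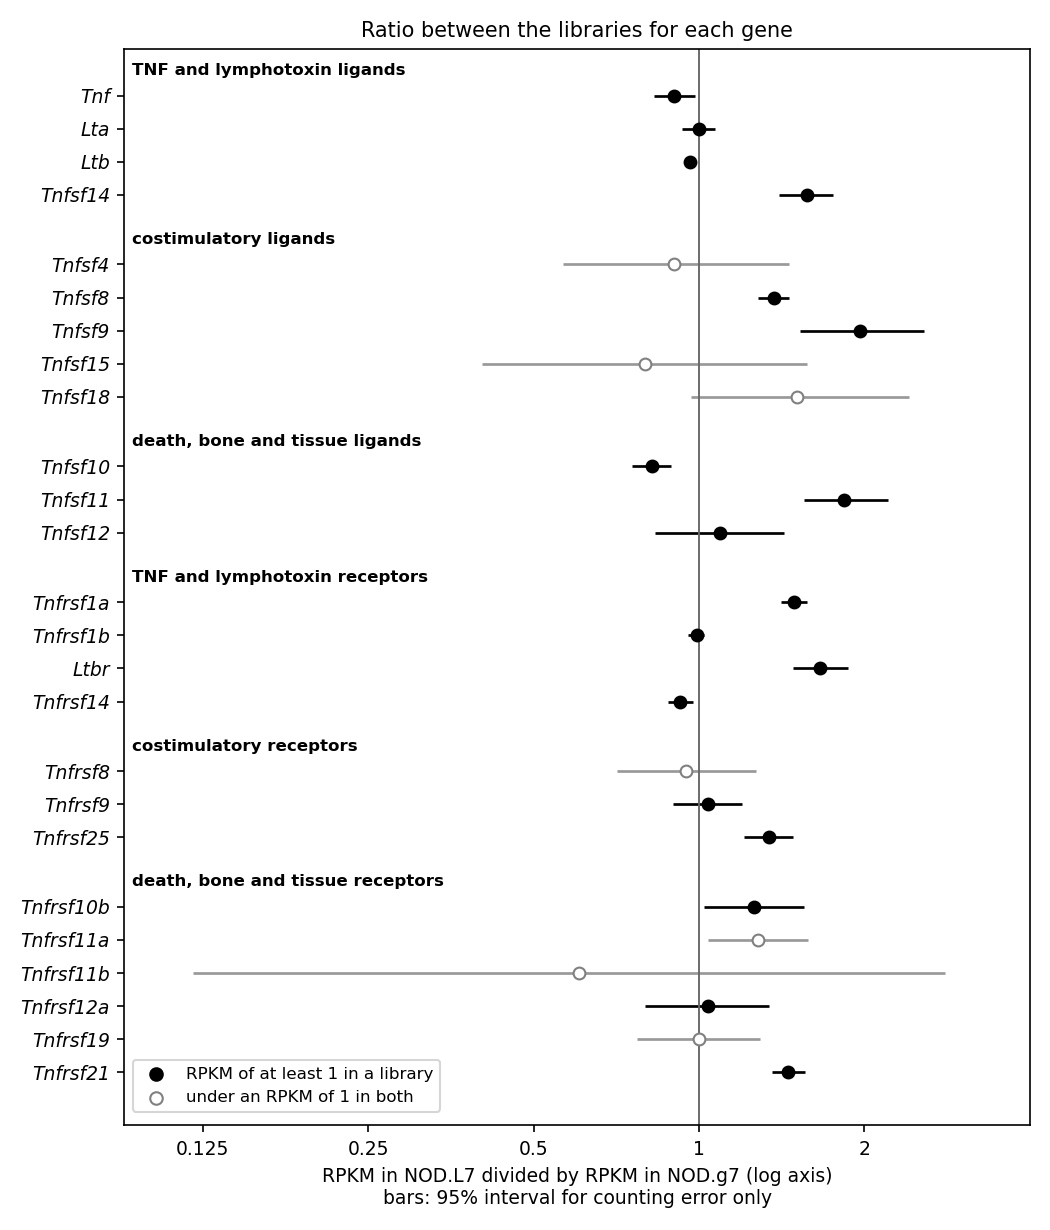
RPKM in NOD.L7 divided by RPKM in NOD.g7 for each of the 25 genes, on a log axis, with bars for the 95% interval of counting error; open circles are genes under an RPKM of 1 in both libraries. Tnfsf14, Tnfsf9, Tnfsf11, Tnfrsf1a, Ltbr and Tnfrsf21 (1.45) and, among the open circles, Tnfsf18 (1.51) lie to the right of 1.41, and Tnfrsf11b has the widest bar, from 0.12 to 2.81.

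The costimulatory ligands included the member with the largest log2 ratio. Tnfsf9 encodes the 4-1BB ligand of antigen-presenting cells and was at 1.42 and 2.78, 1.96-fold higher in NOD.L7 (1.53 to 2.57) at a log2 ratio of 0.64. The value rests on about 83 and 217 fragments. The row of Tnfsf9 overlaps that of Gm11110, so reads at the overlap could be counted for either, and Gm11110 was at 3.64 and 3.67. Tnfsf8, the CD30 ligand gene, was at 8.79 and 12 (fold 1.37, 1.28 to 1.46), with a log2 ratio of 0.41 that did not reach the lower size rule. The other 3 genes of this group did not reach an RPKM of 1. Tnfsf4, the OX40 ligand gene, was at 0.415 and 0.373. Tnfsf15, the gene of the ligand TL1A, was at 0.123 and 0.098. Tnfsf18, the GITR ligand gene, was at 0.329 and 0.498, a fold of 1.51 whose counting interval of 0.966 to 2.41 includes 1.

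Of the costimulatory receptors, Tnfrsf9, which encodes the activation-induced T and NK cell receptor 4-1BB, was at 3.40 and 3.52 (fold 1.04, 0.897 to 1.20). Its ligand gene Tnfsf9 thus differed by more than the receptor gene did. Tnfrsf25, the death-domain receptor DR3 of T cells, was at 8.17 and 10.9 (fold 1.34, 1.21 to 1.48, log2 ratio 0.38). Tnfrsf8, which encodes CD30, was under the filter at 0.554 and 0.525. DR3 and its ligand TL1A were at very unequal levels, since the RPKM of Tnfsf15 was 0.015 times that of Tnfrsf25 in NOD.g7 and 0.00896 times in NOD.L7.

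The ligands with roles in cell death, bone and tissue repair differed in both directions. Tnfsf11 encodes RANKL, the osteoclast differentiation factor that activated T cells and lymphoid stroma also make. It was at 1.75 and 3.23, 1.84-fold higher in NOD.L7 (1.55 to 2.21) at a log2 ratio of 0.62. Tnfsf10, the gene of the apoptosis-inducing ligand TRAIL, was the member furthest in the other direction, at 4.94 and 4.06 (fold 0.82, 0.756 to 0.891, log2 ratio -0.23). Tnfsf12, which encodes TWEAK, was at 2.89 and 3.16 (fold 1.09, 0.832 to 1.43). Its row in the table covers 717 bases where the GENCODE gene spans 9600, so its value describes only a part of the gene.

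The member receptors paired here with these ligands were at RPKM values of 2.44 or less. The decoy receptor genes set aside from the members were not paired with any ligand here. Tnfrsf11a, which encodes the RANKL receptor RANK, was at 0.648 and 0.832, just under the filter, and the soluble decoy receptor gene Tnfrsf11b (osteoprotegerin) was at 0.0389 and 0.0235, about 5 and 4 fragments. Tnfrsf10b, the mouse TRAIL death receptor gene, was just above the filter at 1.05 and 1.32 (fold 1.26, 1.02 to 1.55). Tnfrsf12a, the TWEAK receptor gene, was at 2.35 and 2.44 (fold 1.04, 0.799 to 1.34). Among the member receptors not paired here with a ligand, Tnfrsf19, the TROY gene, was at 0.594 in both libraries. Tnfrsf21, the gene of the death-domain receptor DR6, was the more abundant and the nearest member outside the lower size rule, at 7.66 and 11.1 (fold 1.45, 1.36 to 1.56) and a log2 ratio of 0.49. The nearest inside was Tnfrsf1a at 0.55.

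Read as ligand and receptor pairs, Tnfsf14 with Ltbr was the 1 pair in which both genes passed the lower size rule. Of 17 known pairs, in which members recur, 10 had both genes at an RPKM of at least 1, and in these 1 gene alone passed in 5 pairs and neither gene in 4. In the pairs of Ltb with Ltbr, Tnf with Tnfrsf1a and Lta with Tnfrsf1a, the receptor alone was above it. In the pairs of Tnfsf14 with Tnfrsf14 and Tnfsf9 with Tnfrsf9, the ligand alone was. The RPKM of Ltb was 98.3 times that of Ltbr in NOD.g7 and 57.1 times in NOD.L7, while that of Tnfsf14 was 1.31 and 1.24 times that of Ltbr. For the ligands Tnfsf4 and Tnfsf18 the receptor genes Tnfrsf4 (10.8 and 12.4) and Tnfrsf18 (40.1 and 43.8) were far more abundant than the ligand genes in both libraries.

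The members lie on 8 chromosomes, and 4 of the 5 that passed the lower size rule form 2 neighbouring sets, a grouping made after the values were seen. On chromosome 6, Ltbr (125256589 to 125263888) and Tnfrsf1a (125299741 to 125312501) start 43.2 kb apart in mm9. Between them lies Scnn1a, at 0.838 and 1.38 (log2 ratio 0.37). Within 250 kb of the start of Ltbr, 15 other genes were at an RPKM of at least 1, with a median log2 ratio of 0.05. None of them passed the lower size rule, and the highest was Cd9 at 0.43. Cd27, another TNF receptor superfamily gene whose start coordinate lies 73.9 kb to the left of that of Ltbr, was at 81.4 and 78.5.

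On chromosome 17, Tnfsf9 (57244808 to 57247180) and Tnfsf14 (57328915 to 57333609) start 84.1 kb apart, with Cd70, a further ligand gene of the family, between them at 0 and 0.0715. Of the 14 other genes at an RPKM of at least 1 within 250 kb of the start of Tnfsf9, 0 passed the lower size rule. Their median log2 ratio was 0.01 and the highest was 0.32, at C3. Around Tnfsf14 the highest of 14 was the macrophage gene Emr1, at 0.48. The window around Tnf held 25 such genes with a median of 0.00 and a range of -0.43 to 0.45, and the 3 lymphotoxin and TNF genes lay inside that range. Tnfsf11 (chromosome 14, 78677253 to 78707850) has no other member in its window, and the 1 gene there at an RPKM of at least 1 was Akap11 (log2 ratio 0.18).

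**Figure D3:**
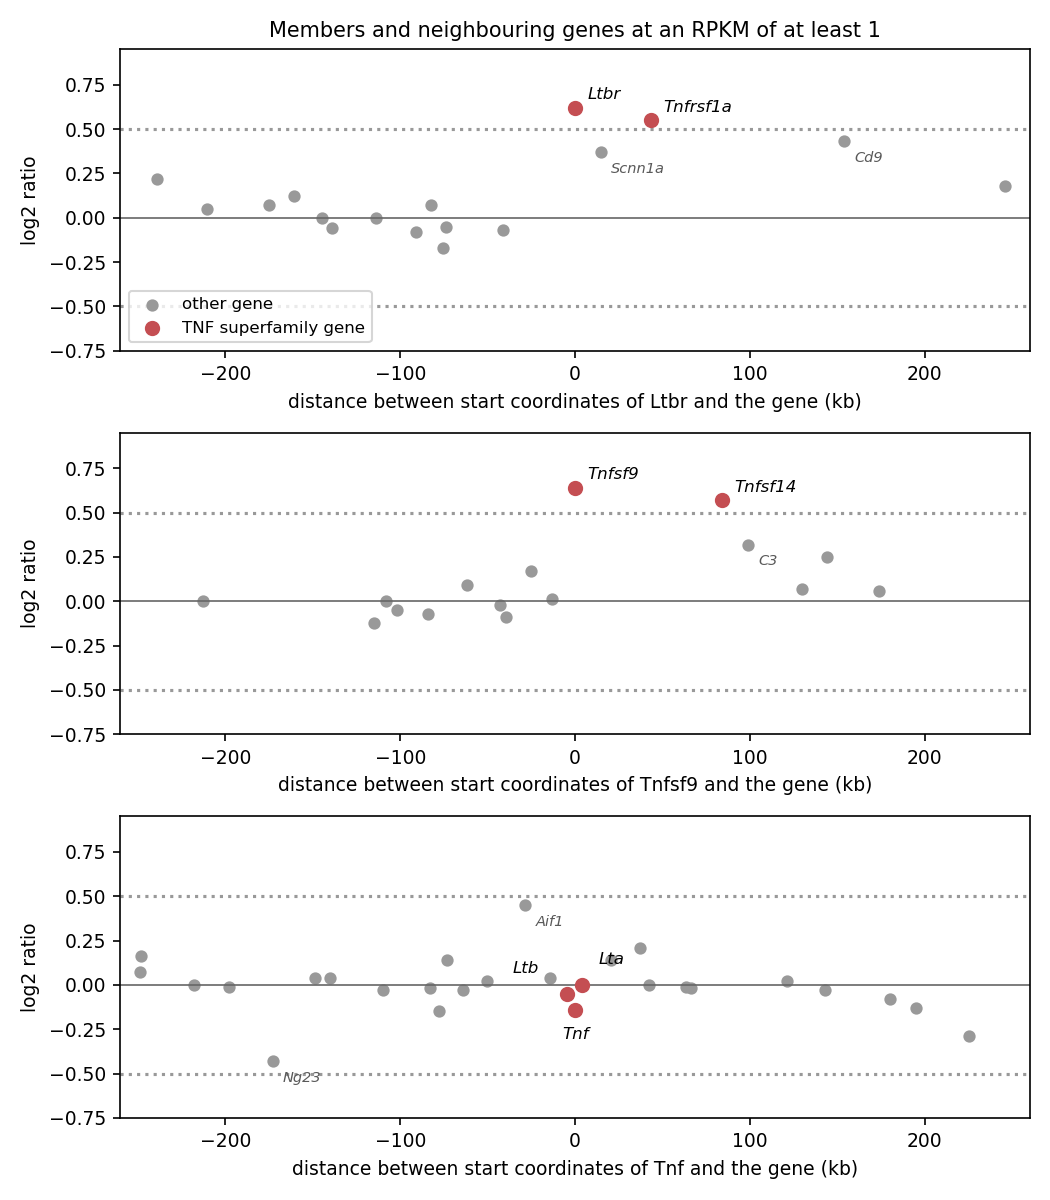
Log2 ratio of each gene at an RPKM of at least 1 against its distance in kb from Ltbr, Tnfsf9 or Tnf, taken between start coordinates, with members in red, other genes in grey and dotted lines at -0.5 and 0.5. Ltbr and Tnfrsf1a (0.62 and 0.55) and Tnfsf9 and Tnfsf14 (0.64 and 0.57) lie above the upper line and their neighbours below it, while Tnf, Lta and Ltb lie near 0.

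The stretches before the transcription start are shown for the 3 higher genes with a window free of annotated exons, Ltbr, Tnfsf14 and Tnfsf11, and for the near-equal neighbours Tnf and Lta. RefSeq promoters (GRCm38.p6, a later build than the table's mm9) were found for 20 of the 25 members, and the window of Tnfrsf1a overlaps an annotated exon. Each sequence is the 250 bases before the start, 5′ to 3′ on the gene's strand. The locations are chr6:125313886-125314135 (minus strand) for Ltbr, chr17:57194182-57194431 (minus) for Tnfsf14, chr14:78308044-78308293 (minus) for Tnfsf11, chr17:35202008-35202257 (minus) for Tnf and chr17:35205352-35205601 (minus) for Lta. Capitals mark matches, on either strand, to GAGGAA, the core of sites bound by the myeloid factor PU.1, or to TGANTCA, the site of AP-1 factors; no matches overlap each other.
Ltbr: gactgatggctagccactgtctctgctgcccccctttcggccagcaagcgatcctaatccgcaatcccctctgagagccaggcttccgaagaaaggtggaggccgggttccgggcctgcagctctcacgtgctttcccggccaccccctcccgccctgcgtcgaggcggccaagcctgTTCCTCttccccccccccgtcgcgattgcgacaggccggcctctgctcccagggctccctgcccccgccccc
Tnfsf14: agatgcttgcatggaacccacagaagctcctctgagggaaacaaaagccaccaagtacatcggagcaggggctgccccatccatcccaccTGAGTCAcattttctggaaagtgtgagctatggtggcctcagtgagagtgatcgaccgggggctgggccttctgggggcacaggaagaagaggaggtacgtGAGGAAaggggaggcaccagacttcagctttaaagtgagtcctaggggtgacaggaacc
Tnfsf11: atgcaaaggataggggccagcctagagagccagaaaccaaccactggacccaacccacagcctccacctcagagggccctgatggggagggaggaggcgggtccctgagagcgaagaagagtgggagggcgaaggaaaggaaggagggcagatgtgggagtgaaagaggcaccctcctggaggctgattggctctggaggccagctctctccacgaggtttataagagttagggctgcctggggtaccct
Tnf: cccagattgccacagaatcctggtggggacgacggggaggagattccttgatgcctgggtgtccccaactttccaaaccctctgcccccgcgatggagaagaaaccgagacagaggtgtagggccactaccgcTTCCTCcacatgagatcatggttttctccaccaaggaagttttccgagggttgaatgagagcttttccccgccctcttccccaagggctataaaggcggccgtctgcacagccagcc
Lta: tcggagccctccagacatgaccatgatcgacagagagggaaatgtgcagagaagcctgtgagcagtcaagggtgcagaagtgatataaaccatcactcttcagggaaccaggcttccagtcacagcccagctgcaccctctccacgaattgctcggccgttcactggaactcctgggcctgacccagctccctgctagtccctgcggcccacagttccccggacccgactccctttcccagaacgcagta
GAGGAA occurred at 1 position each for Ltbr, Tnfsf14 and Tnf and at 0 for Tnfsf11 and Lta, and TGANTCA at 1 position for Tnfsf14 alone of these 5. Higher and near-equal genes thus both held GAGGAA. Over members 10 of 20 held it in a listed window, where 23.3% of all 32851 RefSeq windows of this length did, and 3 of 20 held TGANTCA, against 6.75% of windows. Several members have 2 listed starts, and a gene counts here if either window matched, also where that window overlaps an annotated exon. The GAGGAA matches of Ltb, Tnfsf18, Tnfrsf25 and Tnfrsf19 and the TGANTCA match of Tnfrsf9 lie in such windows. Members are thus counted per gene and all RefSeq promoters per window, so their shares compare only roughly. A match is a description of the letters and not evidence of binding.

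The intracellular machinery that these receptors share was nearly equal in both libraries. Of 26 genes of TNF receptor 1 signalling, 25 were at an RPKM of at least 1, 0 passed the lower size rule, and their median log2 ratio was -0.01 with a range of -0.20 to 0.16. The furthest of the 25 were Fadd, the death-domain adaptor, at 6.84 and 5.82, the kinase gene Ripk1 at 17 and 19.2, and the inhibitor of apoptosis gene Birc3 at 71.4 and 64.8. The 1 gene under that level, Mlkl, was lower in NOD.L7, at 0.788 and 0.468 (fold 0.594, 0.415 to 0.858). All 9 TRAF adaptor genes were within 0.14 of 0 (median 0.04), with Traf4 at 12 and 13.4, Traf5 at 33.1 and 30.6 and Traf1 at 39.8 and 42.6. The 8 genes of the alternative NF-kappaB pathway, through which the lymphotoxin beta receptor signals, had a median of -0.04. Its kinase gene Map3k14 was at 26.9 and 25, Birc3 was furthest at -0.14, and the subunit gene Relb was at 29.2 and 30.8. Among 8 of 9 shedding and processing genes at that level, 0 passed the lower size rule (median -0.01). Sppl2b, listed as 3110056O03Rik, was at 11.2 and 9.49, the protease gene Furin was at 19 and 21.7, and Adam10 was at 43.8 and 40.9. The TNF sheddase gene Adam17 was at 36.4 and 37.7.

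Genes known to be induced by TNF included 2 above the size rule. Of 24 listed, 16 were at an RPKM of at least 1, 14 with a log2 ratio above 0 and 2 below, and their median was 0.10. Of all 11141 genes tested, 6262 had a log2 ratio above 0 and 4879 below, and 43 passed the size rule as higher. Il1b, the interleukin-1 beta gene, was at 29.4 and 77.9 (log2 ratio 1.38), and Vcam1, an adhesion molecule gene of endothelium and splenic macrophages, was at 43.8 and 91.5 (1.05). Tnfaip2 came next at 11.4 and 14.6 (0.33). Icam1, another adhesion molecule gene, was at 30.8 and 38.7 (0.32), and no gene of the list other than Il1b and Vcam1 reached the lower size rule. Of the 8 genes under an RPKM of 1, Ptgs2 had the largest fold, at 0.0721 and 0.427 (fold 5.92, 3.37 to 10.7). Sele alone of them was lower, at 0.272 and 0.184 (fold 0.675, 0.404 to 1.11, an interval that includes 1), and Tnfaip6 was at 0 in both. Of 12 genes tied to lymphotoxin-dependent stroma, 11 were found and only 4 reached an RPKM of 1, with Vcam1 alone past a size rule. Cr2 was at 148 and 152, but it is also counted below among the B cell markers, so its value is not one of stroma alone. The stromal chemokine gene Cxcl13 was at 0.453 and 0.356 and Ccl19 at 0.00723 and 0. The row of Ccl19 runs from 42248504 to 42770050 on chromosome 4, for a transcript of 773 bases, so its value may not give its level. Of 11 genes that control TNF production or decay of its mRNA, 1 passed the lower size rule, Litaf, a gene induced by lipopolysaccharide, at 11.9 and 18.3 (0.58). Zfp36, whose protein destabilises Tnf mRNA, was at 189 and 233 (0.30), and the log2 ratio of Tia1 was -0.19.

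**Figure D4:**
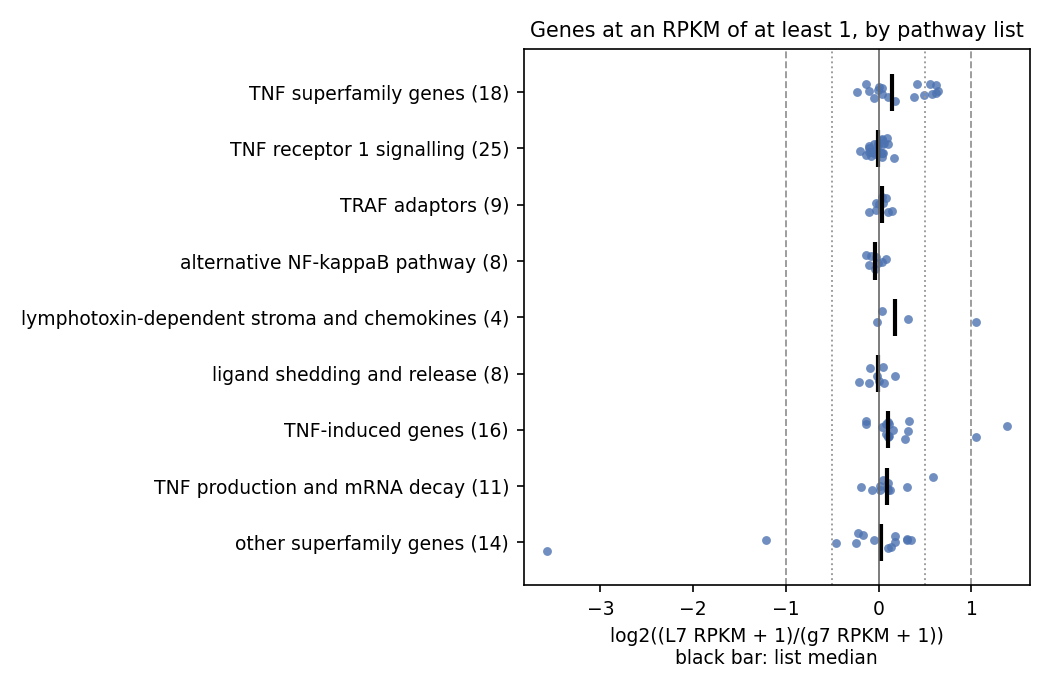
Log2 ratio of each gene at an RPKM of at least 1, by list, with the number of genes in brackets, black bars for medians and dotted and dashed lines at the lower size rule and the size rule. The signalling lists lie within 0.25 of 0, while 5 superfamily genes lie past 0.5 and Il1b and Vcam1 past 1.

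Of 21 superfamily genes outside the 25, 14 were at an RPKM of at least 1, 7 of them with a log2 ratio above 0 and 7 below, and their median was 0.02. The decoy receptor genes Tnfrsf26 (11 and listed at 0) and Tnfrsf22 (4.15 and 1.22) were the only ones of the 14 past a size rule, and both were lower in NOD.L7. The decoy receptor gene Tnfrsf23, under an RPKM of 1 in both, was also lower, at 0.758 and 0.0866 (log2 ratio -0.69). Cd40, the B cell and myeloid costimulatory receptor gene, was at 47.5 and 34.2 (log2 ratio -0.46), whereas its ligand gene Cd40lg was at 16.1 and 20.3 and Fas at 7.34 and 9.65.

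Marker genes of several cell types differed between the same libraries, and their part in the differences of the members was not tested. All 12 monocyte and macrophage markers were higher in NOD.L7, 9 of them past the lower size rule, with a summed RPKM of 391 and 646 (median log2 ratio 0.73). Neutrophil markers summed to 863 and 1126 (8 of 10 higher, median 0.32), dendritic cell markers to 83.2 and 90.8 (4 of 8 higher, median 0.11), and those of basophils, mast cells and eosinophils to 20.8 and 43.8 (6 of 8 higher, median 0.53). One of the 12 is Vcam1, which is also counted above among the TNF-induced and the lymphotoxin-dependent genes. The summed fold was 1.65 for monocytes and macrophages, 1.3 for neutrophils, 1.09 for dendritic cells and 2.11 for basophils, mast cells and eosinophils. The rise of the last sum lay mostly in Hdc, at 5.2 and 26.4. Cma1 (3.48 and 1.36) and Il5ra (5.3 and 4.11) were the 2 markers of that list lower in NOD.L7. The folds of the 5 members past the lower size rule were 1.66 for Ltbr, 1.49 for Tnfrsf1a, 1.57 for Tnfsf14, 1.84 for Tnfsf11 and 1.96 for Tnfsf9. B cell markers summed to 2911 and 2378 (9 of 10 lower, median -0.26) and pan-T cell markers to 1131 and 1165 (median 0.03), beside folds of 0.964 for Ltb and 0.925 for Tnfrsf14. Cd8a and Cd8b1 summed to 135 and 86.6, the pair Cd4 and Cd40lg to 122 and 157, and the 6 regulatory T cell markers to 33.1 and 44.5 (median 0.25).

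NK cell markers summed to 164 and 75.5 (summed fold 0.461, 7 of 8 lower, median -0.83). Tnfsf10 had a fold of 0.82, and which cells its RNA came from was not tested. The 7 erythroid markers found summed to 143 and 59.2, all lower (median -1.45), and platelet markers to 14.8 and 19.9 (median 0.19). Of 10 stromal and endothelial markers 3 reached an RPKM of 1, led by Pecam1 at 72.7 and 71.2, and fibroblast and reticular markers were near 0 in both (Col1a1 0.0755 and 0.0607, Pdgfra 0.00325 and 0.00983, Madcam1 0 and 0.0466). Pancreas markers summed to 5.78 and 4.30, most of it from Cela1 (2.29 and 2.65) and Ctrl (1.40 and 1.34). The other exocrine pancreas genes listed had their larger values in NOD.g7, with Prss2 at 0.667 and 0.277, Pnlip at 0.568 and 0, Cpa1 at 0.458 and 0 and Cel at 0.397 and 0.0325, and Ins2 was at 0 in both. Adipose markers summed to 3.73 and 2.34, with Lep, Cidec and Plin1 at 0 in both.

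**Figure D5:**
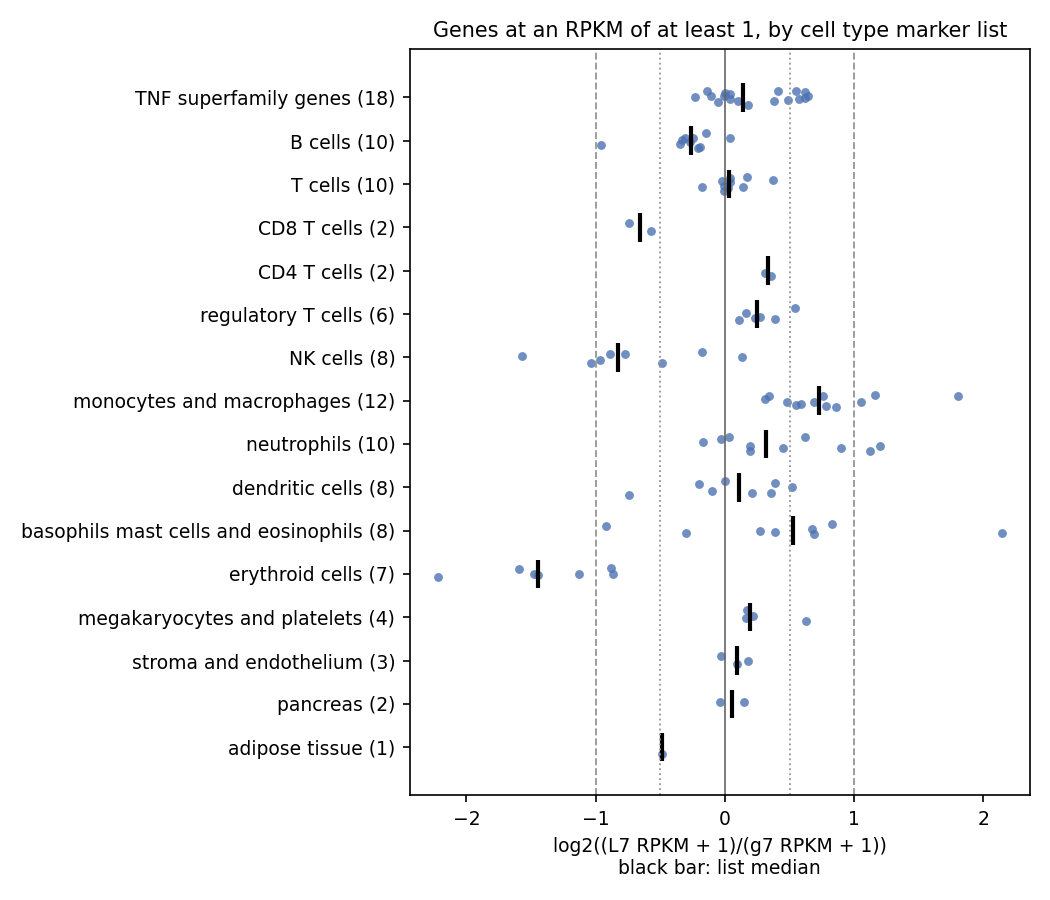
Log2 ratio of each marker gene at an RPKM of at least 1, by cell type, with the 18 superfamily genes at the top, the number of genes in brackets and black bars for medians. Monocyte and macrophage markers lie to the right (median 0.73) and NK cell and erythroid markers to the left (medians -0.83 and -1.45).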

How the data were processed

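The deposited table gives 1 RPKM value per gene and library, computed by the authors from reads of spleen RNA (TruSeq libraries, RNeasy extraction, per the labels). Per the submitters' processing notes, the tools were CASAVA 1.8.2 and SAMtools 0.1.18 and the build was mm9. How genes were modelled, whether strand was used and how multiply mapped reads were counted is not given in the sources used here. The table's columns are headed NOD and NOD.LC7, read here as NOD.g7 and NOD.L7.

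Log2 ratios used a pseudocount of 1 RPKM and genes whose RPKM reached 1 in at least 1 library, over the whole table. Depth came from the steps of RPKM values in single-exon genes under 2500 bases whose span equalled their only GENCODE M21 exon. Within 0.15 of a whole number of bases, 100% of 122 values in NOD.g7 and 100% of 127 in NOD.L7 were whole multiples. The values count covered bases, so no count test was run across genes. For the fold intervals alone, fragments were approximated from the longest GENCODE transcript, or the table's span where shorter, and 200 bases per fragment, and treated as counts in exact binomial (Clopper-Pearson) intervals. Older symbols were matched through RefSeq synonyms (4 of 215 list symbols), and 3 were unmatched.

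Named genes were every member and, per pathway list, the genes past the lower size rule or, where fewer than 3 passed, the 3 furthest from 0; other genes named were chosen after their values were seen. Members, lists and rules were chosen with earlier results of these data known. Calculations used Python 3.11.15, numpy 2.4.6, pandas 2.3.3 and scipy 1.17.1. Calls at the size rule, the TMM factor and the depth estimate were checked on simulated data. The lower size rule, the fold intervals and the motif counts were not. Alternatives were other pseudocounts and filters, median centring, a TMM factor and rescaling both libraries to a common, larger sum.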

Additional observations from a re-analysis of the deposited data

How the results depend on the processing

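With 1 library per genotype no replicate could be left out, and no setting shows how values vary between mice. No paired analysis was possible because neither group holds more than 1 library. The same 5 members passed the lower size rule without a filter and under median centring or a TMM factor, and Tnfrsf21 joined them, making 6, with pseudocounts of 0.1 and 0.5 and after rescaling both libraries to a common, larger total (log2 ratio 0.53, 0.51 and 0.53). That rescaling multiplies every value as well as equalising the totals, so that a pseudocount of 1 weighs less by construction; median centring and the TMM factor left Tnfrsf21 at 0.47. With the filter raised to an RPKM of 5, which leaves fewer genes, 3 passed (Tnfsf14, Ltbr and Tnfrsf1a), the median of the 11 members left was 0.38, and 1 other superfamily gene passed the size rule. The share of all genes called higher at the lower size rule was between 1.76% and 4.05% over these settings. The median of the lymphotoxin-dependent stroma list was 0.01 without a filter, where genes near 0 enter by construction. The number of members past the size rule was 0 under each setting. Depth limits members under an RPKM of 1, such as Tnfrsf11b, with about 5 and 4 fragments.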
